A study of Mus musculus with 6 samples.

Results

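The genes of the constitutive proteasome and of the factors that assemble it, 41 genes of the 21000 mouse protein-coding genes with a curated RefSeq transcript, were followed through the H3K27ac regions of A9 cells. The members are the named subunit and assembly genes, chosen by symbol and not by any measured value. They comprise 14 genes of the core particle (Psma1 to Psma7 and Psmb1 to Psmb7), 17 genes of the regulatory particle (Psmc1 to Psmc6 and 11 Psmd genes), 7 assembly factors (Psmg1 to Psmg4, Psmd5, Psmd9 and Psmd10), and 3 activators or inhibitors (Psme3, Psme4 and Psmf1). A9 is a metastatic clone derived from TC1, a line of mouse lung cells transformed with viral oncogenes and activated ras, and all groups are cultures of this clone with low MHC-I. The 3 groups of A9 cells received 1% DMSO (the vehicle), curcuphenol at 0.00167 μmol, or IFN-γ over 48 h. There was 1 H3K27ac ChIPseq library and 1 input library per group, so that no difference between treatments has a replicate check and no test was possible.

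The proteasome is the protease that degrades ubiquitin-tagged proteins in the cytoplasm and nucleus. Its core particle is a barrel of stacked α and β rings with the active sites on the inside, and the regulatory particle binds ubiquitin chains, unfolds the substrate with a ring of ATPases and feeds it into the barrel. Peptides released by it are a main source of the ligands of MHC-I, and IFN-γ is known to induce the alternative catalytic subunits of the immunoproteasome. Acetylation of histone H3 at lysine 27 (H3K27ac) marks active promoters and enhancers, and ChIPseq recovers the DNA that carries it.

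The deposited lists hold the positions of called regions without a height or a read count. The DMSO list has 47899 regions over 69.8 Mb, the curcuphenol list 48763 regions over 70.3 Mb and the IFN-γ list 55622 regions over 81.1 Mb. Read depth behind the lists is not known, and a wider region can come from more cells that carry the mark or from more of the mark per cell, which cannot be told apart. Genes that mark epithelial cells had a promoter region in 1 of 6 cases under DMSO, 0 of 6 under curcuphenol and 1 of 6 under IFN-γ. Mesenchymal markers had one in 3 of 4 cases under every treatment, and markers of leukocytes and endothelial cells in 0 of 4 cases each.

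The DNA just before the transcription start site (TSS) of 6 members is shown here because these genes had the narrowest promoter regions under DMSO (Psmd9, Psme4), the widest (Psma7, Psmc2), or the highest ratio of covered base pairs against DMSO under IFN-γ (Psmf1) or curcuphenol (Psmd14). Each run is the 250 bases upstream of the TSS, 5′ to 3′ on the strand of the gene, from RefSeq on GRCm38.p6, the assembly named mm10. Capitals mark TGANNNNGC, the core of the antioxidant response element through which the transcription factor encoded by Nfe2l1 is known to induce proteasome genes, and CCGGAAG, the core bound by ETS factors, on either strand.
Psmd9: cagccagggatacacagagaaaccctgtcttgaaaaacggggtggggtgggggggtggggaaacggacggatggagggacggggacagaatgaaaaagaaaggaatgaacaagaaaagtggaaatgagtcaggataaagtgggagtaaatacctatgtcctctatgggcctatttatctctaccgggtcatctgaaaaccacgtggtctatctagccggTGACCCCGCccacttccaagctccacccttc
Psme4: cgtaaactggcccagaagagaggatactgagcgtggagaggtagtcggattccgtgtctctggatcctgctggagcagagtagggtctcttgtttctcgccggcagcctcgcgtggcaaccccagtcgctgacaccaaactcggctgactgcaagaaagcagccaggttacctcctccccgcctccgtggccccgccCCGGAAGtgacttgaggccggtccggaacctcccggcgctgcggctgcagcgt
Psma7: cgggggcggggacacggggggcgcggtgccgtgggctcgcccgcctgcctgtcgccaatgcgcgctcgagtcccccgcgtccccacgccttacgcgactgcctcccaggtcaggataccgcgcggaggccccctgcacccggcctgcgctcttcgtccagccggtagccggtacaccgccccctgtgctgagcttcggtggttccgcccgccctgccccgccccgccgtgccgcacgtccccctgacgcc
Psmc2: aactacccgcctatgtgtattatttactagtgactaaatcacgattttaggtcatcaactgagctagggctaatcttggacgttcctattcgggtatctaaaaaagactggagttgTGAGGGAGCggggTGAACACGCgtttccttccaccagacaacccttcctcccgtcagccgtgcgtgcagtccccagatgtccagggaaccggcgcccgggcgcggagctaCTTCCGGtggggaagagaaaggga
Psmf1: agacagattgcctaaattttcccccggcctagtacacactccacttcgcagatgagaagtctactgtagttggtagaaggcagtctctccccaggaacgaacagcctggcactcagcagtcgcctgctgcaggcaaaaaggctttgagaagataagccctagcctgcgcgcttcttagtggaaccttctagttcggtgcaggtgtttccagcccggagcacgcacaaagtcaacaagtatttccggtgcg
Psmd14: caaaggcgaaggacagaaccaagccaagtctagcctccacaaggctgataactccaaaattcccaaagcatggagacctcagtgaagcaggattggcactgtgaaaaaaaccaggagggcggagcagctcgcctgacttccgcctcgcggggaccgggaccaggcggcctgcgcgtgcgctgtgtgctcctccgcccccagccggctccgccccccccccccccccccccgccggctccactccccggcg

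These runs lie at chr5:123227940-123228189 (plus strand) for Psmd9, chr11:30771525-30771774 (plus) for Psme4, chr2:180042465-180042714 (minus) for Psma7, chr5:21786497-21786746 (plus) for Psmc2, chr2:151741311-151741560 (minus) for Psmf1 and chr2:61711444-61711693 (plus) for Psmd14. All 250 bases were inside H3K27ac regions of all 3 lists for Psma7, Psmc2 and Psmd14. The other 3 promoters were covered under some treatments only. Of the Psmd9 bases 0 were inside a DMSO region, against 250 under curcuphenol and 250 under IFN-γ. Of the Psme4 bases 168 were inside a DMSO region and all 250 were covered in both other lists. Psmf1 had 250 bases covered under DMSO, 0 under curcuphenol and 242 under IFN-γ.

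Each of the 41 constitutive proteasome and assembly genes carried an H3K27ac region at its promoter under every treatment. A promoter region is a called region that overlaps by at least 1 bp the stretch around a curated TSS that starts 1000 bp before it and ends 100 bp after it. All 41 members had one under DMSO, under curcuphenol and under IFN-γ, where the background over all protein-coding genes was 50.2%, 49.1% and 51.1%, and 46.9% for a region in all 3 lists. The 72 ribosomal protein genes, another set of genes that every cell uses, had one in all 3 lists in 72 of 72 cases. The testis subunit gene Psma8 and the thymus subunit gene Psmb11 had no region at all in any list. When a member's promoter window had to be covered over at least 50% of its length, 26 members passed under DMSO (background 36.6%), 28 under curcuphenol (background 33.9%) and 27 under IFN-γ (background 36.7%), and 23 passed in all 3 lists (background 30.1%). As shares of the members these were 63.4%, 68.3%, 65.9% and 56.1%, below the 76.2%, 71%, 75.5% and 64.2% of the genes that had a promoter region in all 3 lists.

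The promoter regions of the members were slightly wider than those of all genes. Their median width was 2095 bp under DMSO, 1835 bp under curcuphenol and 2022 bp under IFN-γ, against 1901, 1683 and 1877 bp over all genes with a promoter region, in the same order. Genes with a promoter region in all 3 lists, as every member had, came closer with 1963, 1717.5 and 1950.5 bp. Medians in the core particle were 2460.5, 1892 and 2787 bp, in the regulatory particle 1970, 2074 and 1828 bp, in the assembly factors 1833, 1346 and 1570 bp and in the activators or inhibitors 833, 2079 and 2022 bp, so that the order of the role groups was not the same in the 3 lists. Ribosomal protein genes lay above all of these with 2477.5, 2545.5 and 2808.5 bp. With DMSO the widest were Psmc2 (4431 bp), Psma7 (4361 bp) and Psmb1 (4291 bp), and the narrowest Psmd9 (660 bp), Psme4 (670 bp) and Psmg3 (777 bp). These 3 wide regions reached over a neighbouring gene: Dnajc2 beside Psmc2, Ss18l1 beside Psma7 and Tbp beside Psmb1. Of the members 6 (14.6%, against 8.31% of all coding genes) had the TSS of a divergent coding gene within 1000 bp upstream (Psma2, Psma7, Psmc5, Psmd13, Psmd10 and Psmg2), so that a promoter region there cannot be given to either gene. The same limit holds for Psma4, Psmb1 and Psmc2, whose promoter regions also lay at the promoters of AY074887, Tbp and Dnajc2 in every list.

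The regions reached further into the gene than upstream of it. From the main TSS, the region under DMSO extended over a median of 592 bp upstream and 1335 bp downstream in the members, against 739 and 1075 bp over all genes. With curcuphenol the medians were 611 and 1003 bp, and under IFN-γ 588 and 1365 bp. Regulatory particle genes had the shorter upstream arms, with medians of 427, 368 and 339 bp in the order DMSO, curcuphenol, IFN-γ. The TSS itself lay inside a region for 35 members under DMSO (85.4%), 39 under curcuphenol (95.1%) and 40 under IFN-γ (97.6%), and for 34 members in every list. Among genes with a promoter region in all 3 lists the corresponding shares were 85.8%, 84.7% and 87.9%. With DMSO the region began downstream of the TSS at Psmc4 (20 bp), Psmc6 (4 bp), Psmd8 (57 bp), Psmd9 (62 bp) and Psmg3 (34 bp), and at Psme4 it ended 83 bp upstream.

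**Figure D1:**
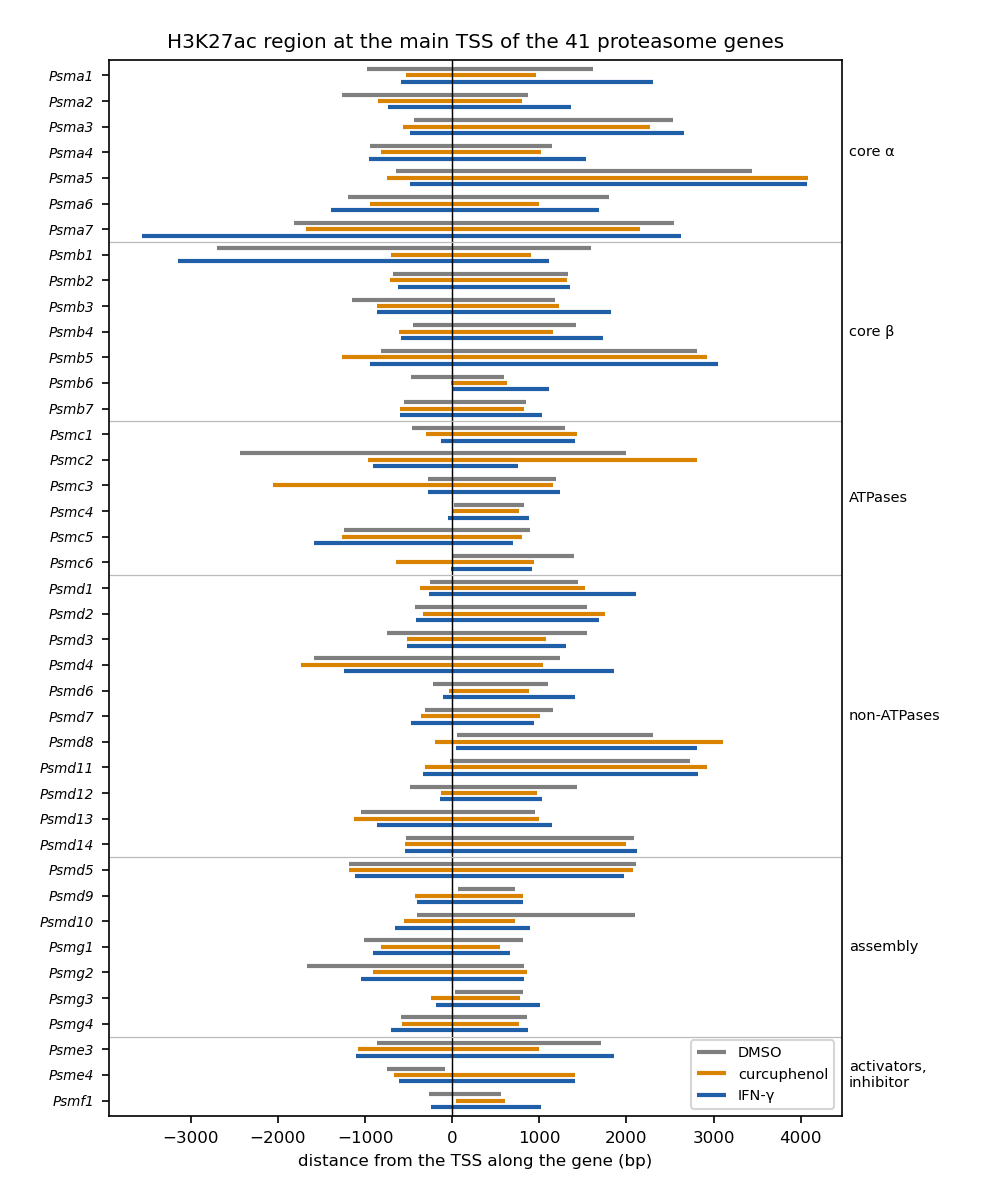
Extent of the H3K27ac region at the main TSS of each of the 41 genes, in bp from the TSS along the gene, with 1 bar per list (DMSO grey, curcuphenol orange, IFN-γ blue). Bars of the 3 lists mostly coincide, and Psmb1, Psmc2, Psmc3, Psmd10 and Psme4 are among the genes where they do not.

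Positions of the promoter regions were shared between lists to a similar degree as at other genes. The base pairs common to the DMSO and the IFN-γ region, as a share of the base pairs in either, had a median of 79.4% in the members and 78.6% over all genes. For DMSO and curcuphenol the medians were 78.9% and 74.5%, and for curcuphenol and IFN-γ 82.5% and 79.1%. Psmd14, the deubiquitinase of the regulatory particle, was among the steadiest, with 98.3% between DMSO and IFN-γ and 95.8% between DMSO and curcuphenol. Psme4 was at the other end, with 24.7% and 26.8%, and its DMSO region stopped before the TSS. A second DMSO region of Psme4, of 1709 bp, began after the TSS, outside the promoter window, and was not counted.

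**Figure D2:**
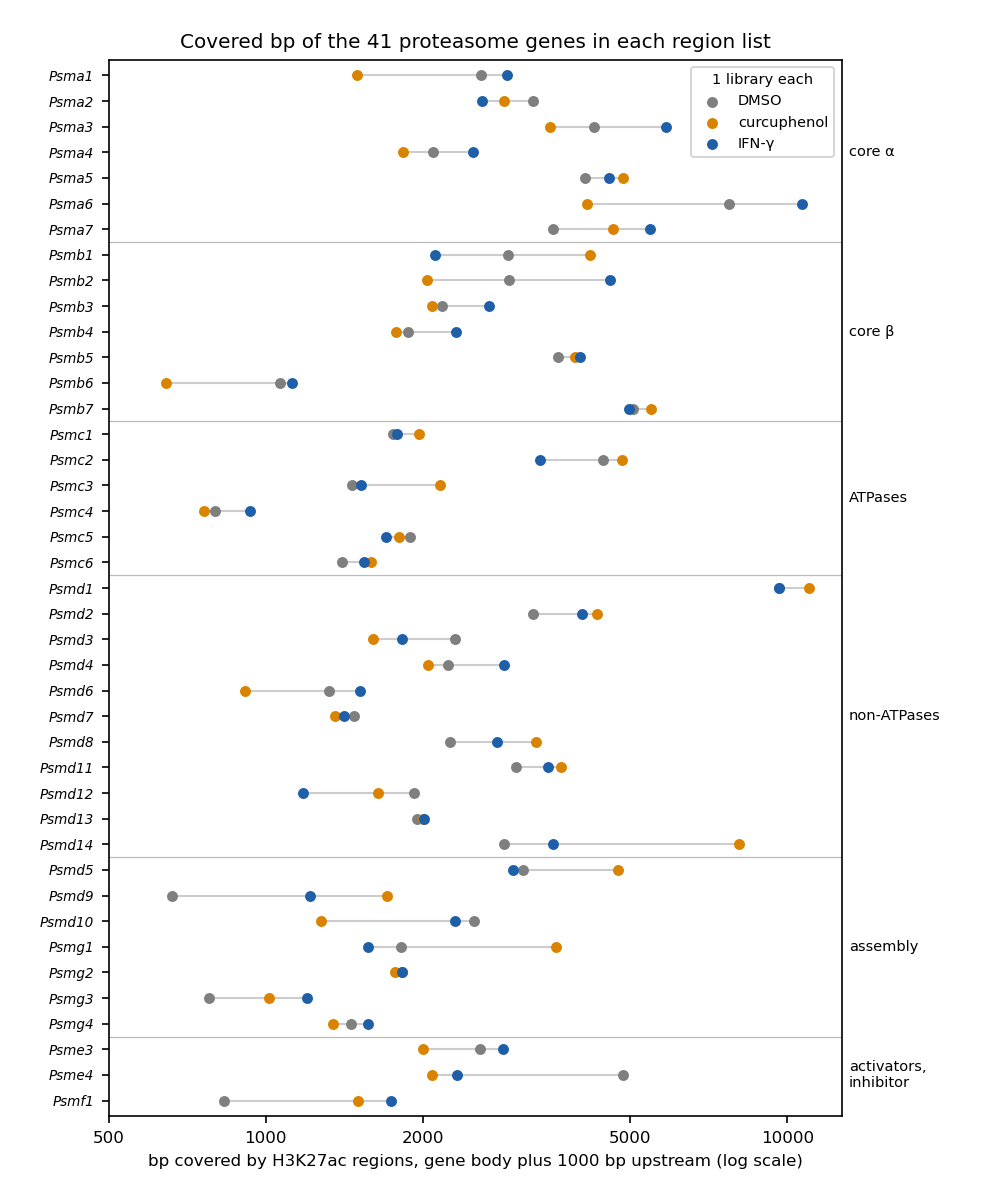
Base pairs covered by H3K27ac regions over the gene body plus 1000 bp upstream of each of the 41 genes, on a log scale, with 1 point per list and a line from the lowest to the highest. Points lie close together for most genes and apart for genes such as Psma6, Psmd14, Psmd9, Psmg1, Psme4 and Psmf1.

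Most members had covered base pairs within 1.5-fold of DMSO under both treatments, with shares of calls near those of genes that likewise had a promoter region in all 3 lists. For each gene, the base pairs covered by regions were summed over the gene body and 1000 bp upstream and set against the other list, and a ratio of at least 1.5 or at most its inverse was called past 1.5-fold. With IFN-γ, 5 members were higher than under DMSO (background 17.8%) and 2 lower (background 7.43%), and 34 were within 1.5-fold. With curcuphenol, 5 members were higher (background 16.7%) and 5 lower (background 18.7%), and 31 were within it. Both comparisons share the DMSO list. Of the 41 genes 27 were within 1.5-fold in both of them, while 54.4% of the 11635 genes with covered base pairs in all lists were, and 59.1% of those with a promoter region in all lists. Members called were 12.2% and 4.88% of the members for IFN-γ, and 12.2% and 12.2% for curcuphenol. Among the 9858 genes with a promoter region in all lists the shares were 14.2% and 6.26% for IFN-γ, and 13.5% and 17.4% for curcuphenol.

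The median ratio of the members was close to that of all genes. It was 1.10 for IFN-γ against DMSO (all genes 1.09) and 0.968 for curcuphenol against DMSO (all genes 0.960). The IFN-γ list covers 1.16 times as many base pairs in total as the DMSO list, a difference of 0.22 on the log2 scale. After division of the covered base pairs by the list totals, the median of the members became 0.949 and that of all genes 0.936, 2 members were higher under IFN-γ (Psmd9 and Psmf1) and 4 lower (Psmb1, Psmc2, Psmd12 and Psme4). With IFN-γ against curcuphenol, 7 members were higher (background 23.3%) and 4 lower (background 12.5%), with a median ratio of 1.03 (all genes 1.11). List totals turned this split to 5 higher and 8 lower. The same division moves the ratios of all genes, and the median became 0.895 in the members and 0.964 over all genes. Shares of all genes called after the division are not given, so the counts after it have no background.

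**Figure D3:**
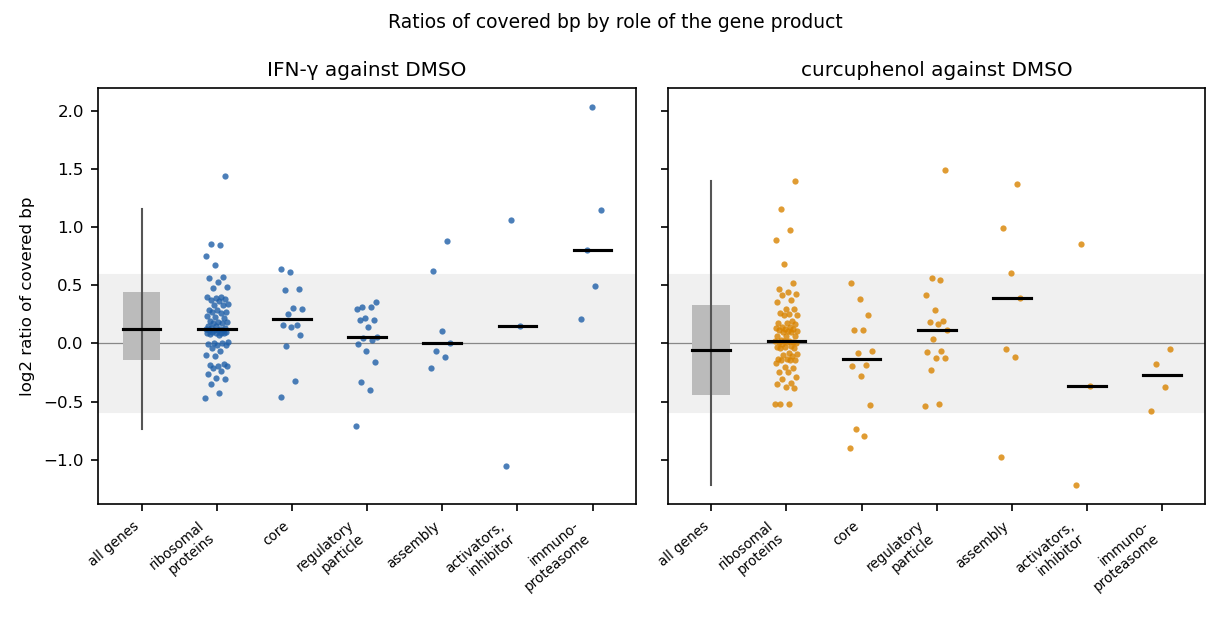
Log2 ratios of covered base pairs against DMSO, by the role of the gene product, with 1 point per gene and the median as a bar, and all genes as median, quartiles (box) and 5th to 95th percentiles (line). The grey band holds ratios within 1.5-fold; 3 of 5 immunoproteasome genes and 2 of 14 core genes lie above it under IFN-γ.

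Of the 41 genes, 14 (34.1%) were past 1.5-fold of DMSO in at least 1 of both comparisons (background 45.6%, and 40.9% of genes with a promoter region in all 3 lists). They were 5 of 14 core genes, 2 of 17 regulatory particle genes, 5 of 7 assembly factors and 2 of 3 activators or inhibitors. On the log2 scale, the median absolute ratio under IFN-γ was 0.30 in the core, 0.20 in the regulatory particle and 0.12 in the assembly factors, against 0.31 over all genes. With curcuphenol the medians were 0.26, 0.19 and 0.60, against 0.39. These counts depended on the grouping and the measure. With Psmd5, Psmd9 and Psmd10, which bind the ATPases, counted in the regulatory particle, they were 5 of 20 there and 2 of 4 in the assembly factors. Within 5000 bp of the TSS they were 2 of 14 in the core, 2 of 17 in the regulatory particle and 3 of 7 in the assembly factors, and by width of the promoter region 4 of 14, 4 of 17 and 3 of 7. No share over all genes is given for these other measures.

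The α subunits form the outer rings of the core and gate its entry. Psma7 had 3550 bp covered under DMSO, 4636 bp under curcuphenol and 5443 bp under IFN-γ, a ratio of 1.53 for IFN-γ. Within this window its promoter region held 3550 bp under DMSO and 3632 bp under IFN-γ, and 1811 bp came from a region at the far end of the gene that also lies over the neighbouring gene Lsm14b. Psma6 had 7715, 4136 and 10695 bp in the same order, a ratio of 0.536 for curcuphenol and 1.39 for IFN-γ. A second curated TSS of Psma6 lies at -14603 bp from the main TSS. Regions there (829 bp under DMSO and 930 bp under IFN-γ) and in the intron after it (1668 and 3449 bp) had no counterpart under curcuphenol, whereas a region nearer to the main TSS was called in all 3 lists (1717, 1763 and 2935 bp).

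Psma1 had 2588, 1494 and 2896 bp in 1 region each, lowest under curcuphenol (ratio 0.577). Psma3 had 4259, 3512 and 5850 bp, and passed 1.5-fold only between IFN-γ and curcuphenol (ratio 1.67). Psma2 had 3258, 2868 and 2602 bp and was the lowest α gene for IFN-γ against DMSO (0.799). Psma4 and Psma5 were within 1.5-fold in every comparison, and Psma5 had the widest promoter region of all members under curcuphenol (4840 bp).

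The β subunits hold the proteolytic sites. Psmb5, Psmb6 and Psmb7 encode the chymotrypsin-like, caspase-like and trypsin-like sites. Psmb5 had 3628 bp under DMSO, 3923 bp under curcuphenol and 3999 bp under IFN-γ, and Psmb7 had 5061, 5471 and 4981 bp. Psmb6 was lower under curcuphenol, at 642 bp against 1066 bp under DMSO (ratio 0.602) and 1120 bp under IFN-γ. The Psmb6 bases lost under curcuphenol lay upstream, where the region began 472 bp before the TSS under DMSO, 11 bp before it under curcuphenol and 3 bp before it under IFN-γ. Over the gene body alone the Psmb6 ratio turned to 1.06.

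Among the β genes without an active site, Psmb2 had 2930, 2033 and 4572 bp in the order DMSO, curcuphenol, IFN-γ. Its IFN-γ value was the highest (ratio 1.56 to DMSO and 2.25 to curcuphenol). The promoter region of Psmb2 was alike in the lists, at 2014, 2033 and 1977 bp, and the difference lay in regions within the gene, centred 2012, 4093 and 5988 bp downstream of the TSS under IFN-γ and 5477 bp downstream under DMSO, whereas curcuphenol had 0 such regions. Psmb1 had 2913, 4177 and 2113 bp, so that it was lower under IFN-γ than under curcuphenol (0.506), while its promoter region was the other way round at 4291, 1610 and 4258 bp. Under curcuphenol a further region of 1514 bp, not counted in the 1610 bp, lay beside it across a gap of 319 bp. Psmb3 and Psmb4 were within 1.5-fold in every comparison.

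The 6 ATPase genes of the regulatory particle, Psmc1 to Psmc6, were within 1.5-fold in all 3 comparisons. Their ratios ran from 0.756 (Psmc2) to 1.17 (Psmc4) for IFN-γ against DMSO, and from 0.95 (Psmc4) to 1.47 (Psmc3) for curcuphenol against DMSO. Psmc4 had the lowest values, with 800, 760 and 933 bp. Psmc2 had 4431, 4811 and 3352 bp. The promoter regions of these genes varied more than their totals: Psmc2 had 1 region of 4431 bp under DMSO, which was split into regions of 1037 and 3774 bp under curcuphenol and of 1099, 1659 and 594 bp under IFN-γ. The Psmc3 promoter region measured 1462 bp under DMSO and 1519 bp under IFN-γ, and 3212 bp under curcuphenol, where it ran 2058 bp upstream of the TSS. That of Psmc6 measured 1400, 1593 and 924 bp.

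Of the 11 other regulatory particle genes, 9 were within 1.5-fold of DMSO under both treatments. Psmd14 stood apart under curcuphenol, at 8071 bp against 2865 bp under DMSO (ratio 2.82) and 3558 bp under IFN-γ (ratio 1.24). The promoter region of Psmd14 was 2615, 2539 and 2660 bp, so that the 5206 bp between curcuphenol and DMSO were made up of 5282 bp more in intronic regions and 76 bp fewer at the promoter. The widest of the intronic regions was 3867 bp wide under curcuphenol and centred 33438 bp downstream of the TSS. At the same place DMSO had a region of 250 bp, and IFN-γ had regions of 481 and 417 bp. Psmd12, a subunit of the lid, was lower under IFN-γ, at 1178 bp against 1920 bp under DMSO (ratio 0.614), all of it in its promoter region, which measured 1104 bp under curcuphenol.

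The remaining lid and base genes showed smaller differences. Psmd6 had 1320, 910 and 1515 bp, below DMSO under curcuphenol (0.689) and past 1.5-fold only between IFN-γ and curcuphenol (1.66). Psmd4, the ubiquitin receptor, had 2234, 2048 and 2862 bp and the highest ratio of this group for IFN-γ against DMSO (1.28). Psmd1 and Psmd2, the scaffold of the base, had 9654, 11023 and 9634 bp and 3248, 4325 and 4048 bp. Most of the Psmd1 bases lay away from its promoter, in regions over the far part of the gene, including 1 under curcuphenol at Htr2b, a gene within Psmd1. Psmd3, Psmd7, Psmd8, Psmd11 and Psmd13 were within 1.5-fold in every comparison, with 0.697 for Psmd3 and 1.46 for Psmd8 under curcuphenol at the ends.

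Assembly factors had several of the larger ratios. Their median covered base pairs were 1818, 1705 and 1571 bp in the order DMSO, curcuphenol, IFN-γ. These were below the 2254, 2033 and 2330 bp of all members and near the 1608.5, 1886 and 1620 bp of the ATPase genes. Psmd9, a chaperone of the ATPase ring, had 660 bp under DMSO, 1705 bp under curcuphenol and 1217 bp under IFN-γ, ratios of 2.58 and 1.84. Both its higher values came with a promoter region that crossed the TSS, of 1244 and 1217 bp, where the DMSO region of 660 bp did not. Psmd5 had 3111, 4726 and 2972 bp, and its curcuphenol ratio of 1.52 came from 3 intronic regions of 374, 846 and 433 bp found under curcuphenol alone, since the promoter region was 3300, 3258 and 3088 bp. Psmd10 had 2506, 1278 and 2306 bp, and was lower under curcuphenol (0.510). With IFN-γ the Psmd10 bases lay in regions of 758 and 1548 bp with a gap of 377 bp, so that the region at its TSS alone was narrower than the DMSO region of 2506 bp.

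Psmg1 to Psmg4 encode chaperones of the α ring. Psmg1 had 1818, 3606 and 1570 bp, a curcuphenol ratio of 1.98 that came from a region of 2243 bp centred 7891 bp downstream of the TSS over a coding exon, found under curcuphenol alone. Its promoter region was narrower under curcuphenol, at 1363 bp against 1833 bp. Psmg3 had 777, 1016 and 1197 bp, all at the promoter, and was higher under IFN-γ (1.54). Psmg2 had 1827, 1769 and 1827 bp and Psmg4 had 1456, 1346 and 1571 bp, both within 1.5-fold in every comparison.

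Psme4 and Psmf1 moved away from DMSO under both treatments, in opposite directions, and share the DMSO list in both. Psme4 encodes an alternative cap of the core particle, and had 4832 bp under DMSO, 2079 bp under curcuphenol (0.430) and 2330 bp under IFN-γ (0.482). With DMSO 9 regions were called over it, 7 of which, of 242 to 503 bp, lay 16513 to 73329 bp downstream of the TSS and had no counterpart in either other list. By the promoter region alone the order was the reverse, at 670 bp under DMSO, 2079 bp under curcuphenol and 2022 bp under IFN-γ. This reversal rests on the promoter window. The DMSO list had a gap of 291 bp over the TSS, and its region of 1709 bp after the gap was not counted. The regions of the other lists were unbroken there. Within 5000 bp of the TSS, Psme4 remained lower under both treatments than under DMSO, but within 1.5-fold. Psmf1, which encodes an inhibitor of the core particle, had 833, 1505 and 1741 bp (ratios 1.81 and 2.09). Its curcuphenol value included regions of 582 and 362 bp centred 20221 and 21191 bp downstream, and its promoter region measured 833 bp under DMSO, 561 bp under curcuphenol and 1267 bp under IFN-γ. Psme3, the gene of a nuclear activator, had 2574, 2003 and 2854 bp and was within 1.5-fold in every comparison.

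**Figure D4:**
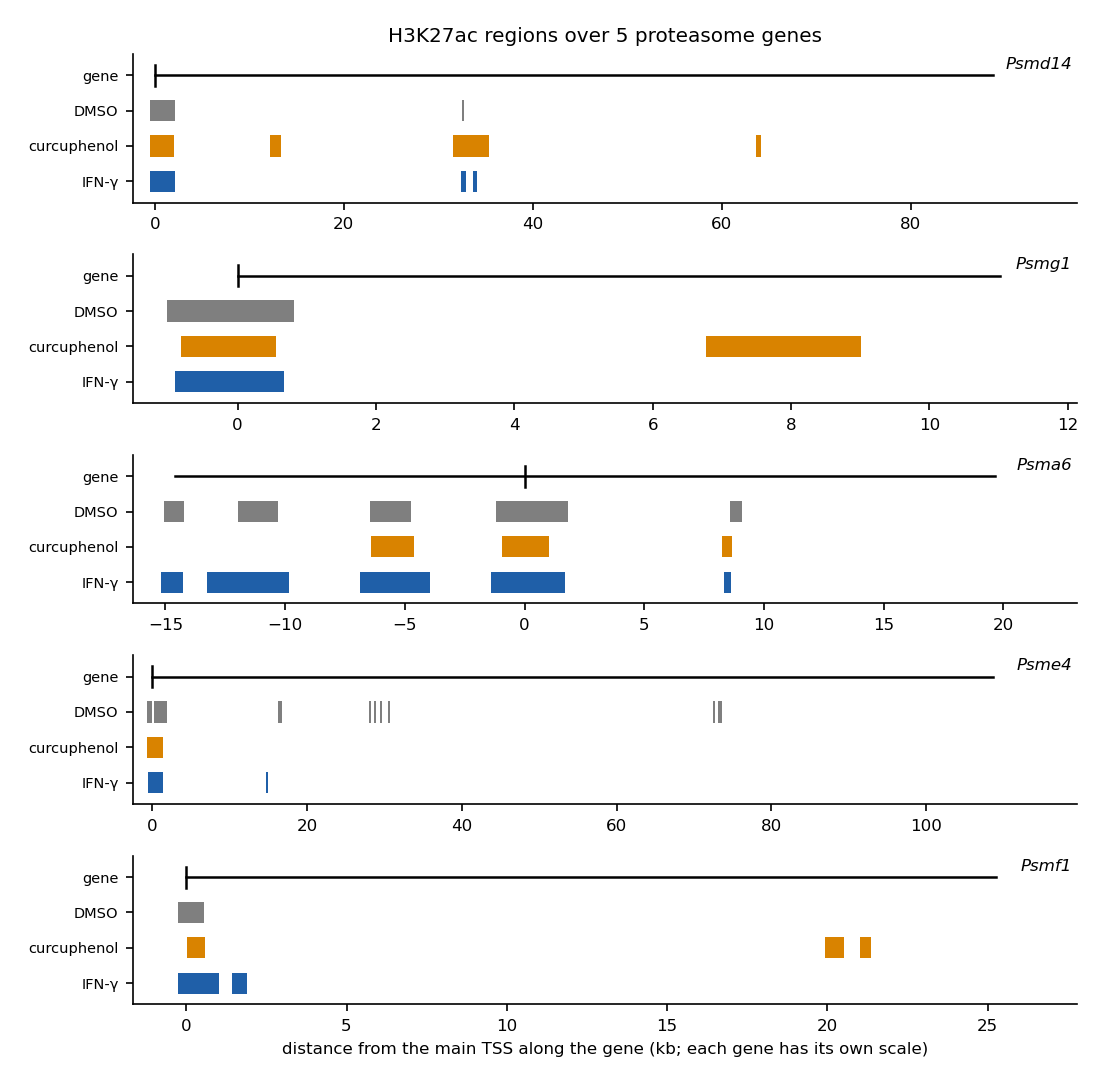
H3K27ac regions over Psmd14, Psmg1, Psma6, Psme4 and Psmf1 in each list, in kb from the main TSS (vertical tick) along the gene, with the gene as a line. Regions at the TSS recur in all 3 lists, and those away from it differ, such as the 3867 bp region of Psmd14 and the 2243 bp region of Psmg1 under curcuphenol.

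Regions found in 1 list alone lay away from promoters in the members, as most of them did over all genes. The members had 42 promoter regions and 27 others under DMSO, 42 and 26 under curcuphenol, and 43 and 29 under IFN-γ. Of the promoter regions, 0 were found in only 1 list, where the background over all coding genes was 1.78% under DMSO, 2.2% under curcuphenol and 2.37% under IFN-γ. Among genes with a promoter region in all 3 lists, as every member had, the shares were 0.77%, 0.444% and 0.558%. A count of 0 is therefore little different from that of such genes. Of the others, 10 of 27 under DMSO (background 17%), 14 of 26 under curcuphenol (background 30.6%) and 6 of 29 under IFN-γ (background 24.8%) had no overlapping region in either other list. The 10 under DMSO lay in 4 genes, with 7 in Psme4 alone, and the 14 under curcuphenol lay in 10 genes. Regions away from promoters were shorter as well, with median widths of 503, 682 and 594 bp against 2054.5, 1804 and 2011 bp at promoters. Promoter regions held 77.3%, 69.7% and 74.3% of the covered base pairs of the members in the order DMSO, curcuphenol, IFN-γ.

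Differences past 1.5-fold came from either place. Of the 7 members past 1.5-fold under IFN-γ against DMSO, 4 had a promoter region past 1.5-fold in the same direction (Psmd12, Psmd9, Psmg3 and Psmf1), 2 had one within it (Psma7 and Psmb2) and in 1, Psme4, it went the other way. Of the 10 under curcuphenol, 5 had one in the same direction (Psma1, Psma6, Psmb6, Psmd9 and Psmd10), 4 had one within it (Psmd5, Psmd14, Psmg1 and Psmf1) and Psme4 again went the other way. The DMSO promoter region of Psme4 counted 670 bp here and left out the region of 1709 bp just after the TSS. By width of the promoter region alone, a measure added after the values were seen, 4 members were wider and 4 narrower under IFN-γ than under DMSO (13.2% and 10.5% over all genes), and 3 were wider and 6 narrower under curcuphenol (9.27% and 21% over all genes).

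**Figure D5:**
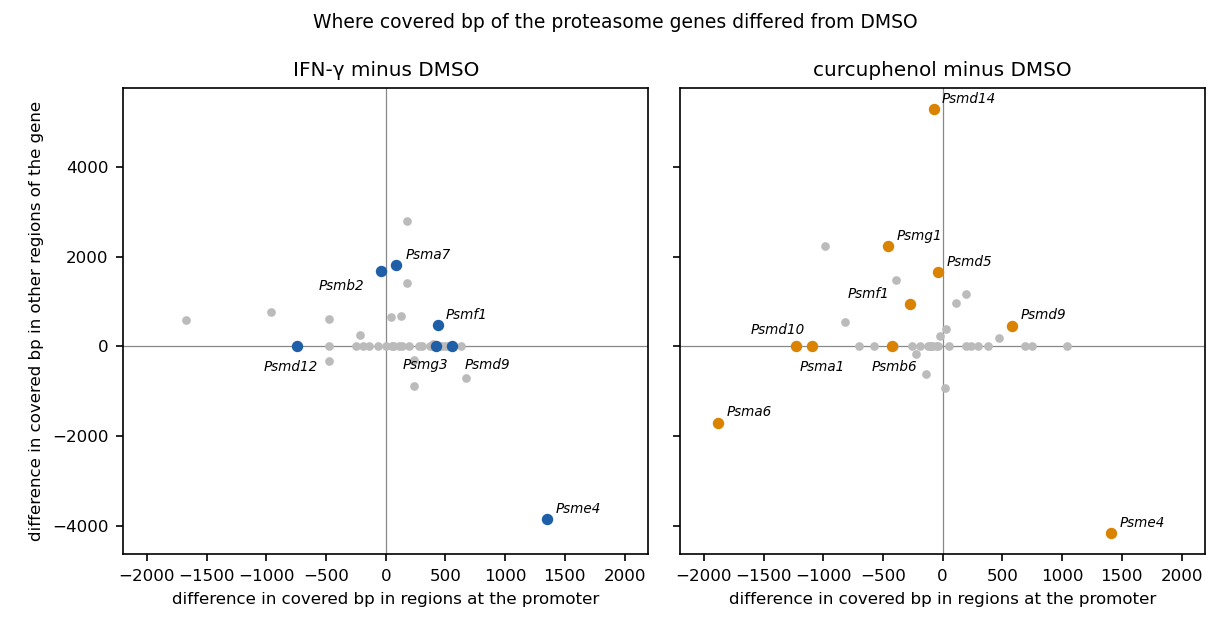
Difference in covered base pairs from DMSO in regions at the promoter (horizontal, bp) and in other regions of the gene (vertical, bp) for the 41 genes, under IFN-γ (left) and curcuphenol (right). Genes past 1.5-fold are coloured and named; Psmd14, Psmg1 and Psmd5 under curcuphenol lie on the vertical side, and Psma1 and Psmd10 on the horizontal axis.

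The immunoproteasome genes gave a scale for the constitutive ones under IFN-γ. Psmb8, whose product replaces that of Psmb5, had 689 bp covered under DMSO, 0 bp under curcuphenol and 2816 bp under IFN-γ. Psmb9, which replaces Psmb6, had 1445, 1279 and 3197 bp, and Psmb10, which replaces Psmb7, had 1915, 1284 and 2690 bp. The IFN-γ ratios to DMSO were 4.09, 2.21 and 1.40 for these genes, beside 1.10, 1.05 and 0.984 for Psmb5, Psmb6 and Psmb7. Psme1 and Psme2, of the activator that IFN-γ induces, had 1293, 1250 and 2257 bp (1.75) and 2337, 1806 and 2709 bp (1.16). All 5 were above DMSO, 3 past 1.5-fold (60%, background 17.8%), with a median ratio of 1.75 against 1.10 in the 41 constitutive genes. The IFN-γ list covers 1.161 times the base pairs of the DMSO list, and Psme2, at 1.159, lay just below that. With curcuphenol the 4 genes with a ratio were all below DMSO, with a median of 0.829 and 0 past 1.5-fold (background 16.7% higher and 18.7% lower). In every list the promoter region of Psmb9 also lay at the promoter of the divergent gene Tap1, and that of Psme2 at Rnf31. These regions cannot be given to either gene of the pair.

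Among 9 further genes of the proteasome and of proteins bound to it, 3 were lower than under DMSO by 1.5-fold with IFN-γ (background 7.43%). With curcuphenol 4 of 9 were lower (background 18.7%), and 0 were higher with either treatment. Uchl5, Ecpas and Rad23b were lower with both treatments, which share the DMSO list. Uchl5, a deubiquitinase, had 4940, 1129 and 2616 bp in the order DMSO, curcuphenol, IFN-γ, and Ecpas, an adaptor of the proteasome, had 11777, 5447 and 5924 bp. Rad23b, the gene of a shuttle for ubiquitin-tagged proteins, had 6803, 2823 and 4376 bp. The promoter regions of these genes stayed within 1.5-fold of DMSO. They measured 1579, 1129 and 1786 bp at Uchl5, 2893, 2176 and 2829 bp at Ecpas, and 3404, 2327 and 3165 bp at Rad23b. That of Uchl5 also lay at the promoter of the divergent gene Ro60 and cannot be given to either gene. Usp14 (2814, 1974 and 4034 bp) and Txnl1 (4553, 5331 and 3240 bp) passed 1.5-fold between IFN-γ and curcuphenol only.

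Of the genes that control proteasome gene expression, Nfe2l1 had 9042, 9475 and 11493 bp, and Nfe2l2 had 25860, 24590 and 26850 bp, both within 1.5-fold. Ddi2, the protease that releases active Nfe2l1 protein, was higher with both treatments, at 11716 bp under curcuphenol and 6738 bp under IFN-γ against 4253 bp. Its promoter region measured 3767, 6276 and 4420 bp in the order DMSO, curcuphenol, IFN-γ, and its other regions held 486, 5440 and 2318 bp. Its IFN-γ ratio was 1.58, where the IFN-γ list covers 1.16 times the base pairs of the DMSO list. Ngly1, the glycanase that acts on the same protein, was lower with both, at 1777 and 1918 bp against 4478 bp. Both comparisons share the DMSO list. Thus 1 of these 4 genes was higher and 1 lower with each treatment. The background was 17.8% and 7.43% under IFN-γ, and 16.7% and 18.7% under curcuphenol. Ribosomal protein genes had 5 of 72 higher and 0 lower under IFN-γ, and 5 higher and 0 lower under curcuphenol.

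Motif counts in promoter sequences differed between the core and the regulatory particle, a description without a test. A window of 250 bases before to 50 after the TSS was in the RefSeq table for 34 members, the others being Psmb1, Psmb2, Psmb7, Psmc3, Psmd3, Psmd7 and Psmg2. CCGGAAG was found on either strand in 9 of 14 regulatory particle promoters (64.3%) and 1 of 11 core promoters (9.09%, Psma6), against 22.2% of the genes with a promoter region in all 3 lists and 8.86% of all promoters in the table. TGANNNNGC was found in 8 of 11 core promoters (72.7%), 6 of 14 regulatory particle promoters (42.9%) and 4 of 6 assembly promoters (66.7%), against 43.2% and 41.3%. AAGATGG, the YY1 motif, was in 17.6% of the member promoters, against 8.17% and 6.34%. GCGCANGCG, the NRF1 motif, was in 20.6%, against 16.1% and 6.25%.

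GGGCGG, the GC box, was in 58.8% of the member promoters, below the 69.4% of genes with a promoter region in all 3 lists and above the 35.7% of all promoters. CCAAT was in 29.4%, against 40.2% and 37.4%. Matches of different motifs may overlap, and a match of letters is not a bound site. The median GC content of the windows was 57.8%, between 47% and 77%, against 61.7% in genes with a promoter region in all 3 lists. Windows of 26 members under DMSO, 27 under curcuphenol and 25 under IFN-γ were wholly inside H3K27ac regions, and 2 were wholly outside under DMSO.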

How the data were processed

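H3K27ac ChIPseq and input libraries of A9 cells under 3 treatments (6 samples) were prepared by the authors, who aligned paired reads to mm10 with BWA mem (version 0.7.17 in the submitters' processing notes) and called regions with MACS2 (version 2.1.2, FDR 0.01, paired-end fragments) against the input of the same treatment. The deposited files give start and end positions in bp, with no score, so read depth is unknown. Calling can split a domain into several regions, and a longer list gives more covered base pairs. Filters on duplicates are not given in the sources used here.

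Treatments were taken from the sample titles. Regions were compared with curated RefSeq transcripts (NM_ and NR_) of GRCm38.p6 in Python 3.11.15 with numpy 2.4.6 and drawn with matplotlib 3.10.9. Promoters ran from 1000 bp upstream to 100 bp downstream of any curated TSS, with at least 1 bp of overlap. Covered base pairs were summed over the gene body plus 1000 bp upstream, and ratios were formed among genes above 0 in both lists, with 1.5-fold as the call. The main TSS is that of the RefSeq Select transcript, or of the transcript with the lowest accession where none is marked. The overlap code was tested on simulated data and gave 0 wrong answers in 3000 windows. Promoter sequences came from the RefSeq table and were searched on both strands.

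The members and gene lists were chosen with earlier results of these data known. By rule, values in every list are given for members past 1.5-fold, for the highest and lowest ratio of each role group, and for the widest and narrowest promoter regions. With 1 library per treatment, no test, p-value or spread between replicates was possible. Alternatives were other promoter and gene windows, a minimum region width, joining of near regions, predicted transcripts, scaling by list totals or by the median of all genes, other fold limits and regrouped roles. The input libraries were used only through the authors' calling and were not analysed here. Some genes and motifs of the fixed lists are not reported here.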

Additional observations from a re-analysis of the deposited data

How the results depend on the processing

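Of 134 combinations of a result over the members with an alternative, 99 kept the value within 1.5 times (counts) or within the 95% order-statistic interval of the median, and 35 did not. Some of the 99 could not change, because every member had a promoter region and covered base pairs in every list. Examples are the wider promoter window and the rule that takes genes covered in either list. The 99 are thus no measure of how stable the results are. No paired analysis was possible because each treatment has 1 library, and for the same reason no replicate could be left out. With at least 50% of the promoter window covered, a rule that fewer of all genes pass as well, 26 members passed with DMSO, 27 with IFN-γ and 23 in all lists. For IFN-γ against DMSO, members higher were 3 within 5000 bp of the TSS, 2 by list totals, 2 by the median of all genes, 13 at 1.2-fold and 1 at 2-fold, and members lower were 1 within 5000 bp of the TSS, 1 with regions of at least 500 bp, 4 by promoter width (an alternative added after the data were seen), 4 by list totals, 6 at 1.2-fold and 1 at 2-fold. For curcuphenol against DMSO, members higher were 2 within 5000 bp of the TSS, 3 by promoter width, 12 at 1.2-fold and 2 at 2-fold, and members lower were 10 at 1.2-fold and 1 at 2-fold. For IFN-γ against curcuphenol, members higher were 11 over the gene body alone, 13 at 1.2-fold and 2 at 2-fold, and members lower were 8 by list totals, 8 by the median of all genes, 8 at 1.2-fold and 2 at 2-fold. List totals turned the median ratio to 0.949 (IFN-γ against DMSO) and 0.895 (IFN-γ against curcuphenol). Past 1.5-fold against DMSO were 2 core genes within 5000 bp of the TSS, 5 regulatory particle genes after regrouping and 4 by promoter width, and 2 assembly factors after regrouping, 3 within 5000 bp of the TSS and 3 by promoter width. Shares over all genes are given above only for the 50% rule and for single comparisons with DMSO by promoter width. The other counts therefore have no background and do not set the members apart from other genes.

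Members past 1.5-fold gave 224 ratios under the alternatives that can change a ratio (windows, region filters, scaling and promoter width), of which 172 stayed past 1.5-fold the same way, 33 came within it and 19 changed direction. By promoter width the IFN-γ ratio to DMSO was 0.982 for Psmb2 and 3.02 for Psme4, the curcuphenol ratio to DMSO 0.971 for Psmd14, 0.987 for Psmd5, 0.744 for Psmg1, 3.10 for Psme4 and 0.673 for Psmf1, and the IFN-γ ratio to curcuphenol 2.64 for Psmb1, 0.972 for Psmb2, 1.05 for Psmd14 and 1.15 for Psmg1. Within 5000 bp of the TSS the values were 0.971 for Psmd14, 0.987 for Psmd5, 0.744 for Psmg1 and 0.673 for Psmf1 with curcuphenol, and 1.36 for Psmb1, 1.05 for Psmd14 and 1.15 for Psmg1 between IFN-γ and curcuphenol. These windows leave out the distant regions of the same genes. For Psme4 the promoter width under DMSO also leaves out a region of 1709 bp just after the TSS. For Psmb1 the promoter width under curcuphenol leaves out a region of 1514 bp across a gap of 319 bp. Over the gene body alone Psmb6 with curcuphenol became 1.06.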
